A study of Arabidopsis thaliana with 2 samples.

Results

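Dicers, RNA-dependent RNA polymerases and their partners make the small RNAs of Arabidopsis thaliana, and the loci that encode them were examined for listed changes in DNA methylation. The 9 genes were DCL1, DCL2, DCL3, DCL4, RDR1, RDR2, RDR6, SGS3 and HEN1, of 27444 nuclear protein-coding genes in the gene table used. They were named by function, and a deposited region was counted when at least 1 bp of it lay in a gene or within 1 kb of it. By this rule 105 of the 83934 deposited regions belonged to the 9 genes, 51 in the ddb2-3 comparison and 54 in the cen comparison.

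Genomic DNA came from seedlings grown in vitro for 10 days in liquid medium and was bisulfite sequenced, a method in which unmethylated cytosines are converted and methylated ones are read unchanged. The labels give 1 library of ddb2-3, a line named for the insertion DsLoxHs195_05H, and 1 library of Col wild type, in the same growth conditions. The DDB2 protein recognises ultraviolet damage for global genome repair, and the study asked how plants deficient in this repair differ in methylation. The authors' deposited tables also compare a line called cen with Col, and the labels used here do not describe that line or its number of libraries. Both comparisons name Col, which was taken to be the same library. A Col level that is off by chance then moves both values the same way. The tables hold no reads, coverage, p-value or level per library, so the depth is unknown, no test across plants was possible, and the insertion itself could not be checked. Listed differences all exceed 0.1 in absolute size, on a scale where 1 is the whole range of the methylation level, and a place with no region is one that was not listed, which does not show equal methylation.

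Nothing in the tables says which way the subtraction runs, and it was taken to be Col minus the other line, for this reason. The names of the comparisons put Col first. Where both tables give the same value for the same place, a shared Col means that both lines hold the same level. That level is most likely at an end of the scale. All 5 such CHH places were positive, and since CHH sites are rarely methylated in full, both lines are more likely at 0 than at 1 there. The 818 such CG places, 806 positive and 12 negative, cannot tell these apart, because CG windows are often fully methylated, and neither can the 7 such CHG places, 4 positive and 3 negative. The reading thus rests on the names and on 5 places. A positive value is therefore read as lower methylation in ddb2-3 or cen than in Col, and a negative value as higher. Every "higher" and "lower" here rests on that reading and would be exchanged if it were wrong.

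Dicers cut double-stranded RNA into small RNAs, RNA-dependent RNA polymerases supply that double-stranded RNA, and HEN1 methylates the ends of small RNAs, which protects them. DCL1 makes microRNAs, DCL4 makes trans-acting small RNAs and acts with DCL2 against viruses, and DCL3 with RDR2 makes the small RNAs that guide DNA methylation to transposons. In Arabidopsis, methylation in the CG context within transcribed genes is common and is kept by MET1, whereas CHG and CHH methylation (H is any base but G) is mostly found at transposons and repeats.

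All 9 genes carried CG regions in both comparisons, most of them in the gene, and outside CG only 1 CHG region was listed. Such regions were uncommon in general. A CHG region stood at 5.04% of all protein-coding genes for ddb2-3 and 6.19% for cen, and a CHH region at 7.66% for ddb2-3 and 7.33% for cen. Each of the 9 genes is longer than both its flanks together, and the split between gene and flank was not compared with a background. In the authors' deposited tables, CG regions numbered 50 for ddb2-3, 45 in the genes and 5 beside them, and 54 for cen, 46 in the genes and 8 beside them. A CG region by the same rule lay at 57.7% of all protein-coding genes for ddb2-3 and 60.1% for cen. Among the 5688 protein-coding genes whose length lies between those of SGS3 (3.24 kb) and DCL4 (10.1 kb), the shares were 85% for ddb2-3 and 86.6% for cen. The presence of a CG region at all 9 is thus near the background of genes of their length. For ddb2-3, 25 CG regions were positive and 25 negative, and 52.4% of all CG regions in that table were positive. For cen, 18 were positive and 36 negative, or 33.3% positive, against 42.9% in the whole cen table and 46.8% of the regions at genes of this length. For ddb2-3, 8 genes had a positive region (43% of all genes, 70.3% of those of this length) and 9 a negative one (39% of all, 67.2% of this length). For cen, 9 genes had a positive region (40.1% of all, 68.5% of this length) and 8 a negative one (46% of all, 73.5% of this length). Regions of both signs stood at 8 of the 9 genes in either comparison, all but SGS3. The shares for both signs were 24.2% of all genes for ddb2-3 and 26% for cen, and 52.4% of genes of this length for ddb2-3 and 55.5% for cen.

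The regions were short and their differences moderate. A single window of 100 bp made up 45 of the 50 CG regions for ddb2-3, with a longest of 300 bp, and 43 of the 54 for cen, with a longest of 700 bp, in the authors' deposited tables. Single windows also made up 82.5% of all CG regions for ddb2-3 and 81.3% for cen, so short regions are general in these data. The median absolute difference was 0.301 for ddb2-3 and 0.297 for cen, against 0.256 and 0.260 over the CG regions at genes of this length, and 0.232 in either whole table. The widest differences at the 9 genes were 0.561 at HEN1 for ddb2-3 and -0.601 at DCL2 for cen. Of all positive ddb2-3 CG regions 3.40%, and of all negative cen CG regions 2.12%, were at least as wide in the authors' deposited tables.

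**Figure D1:**
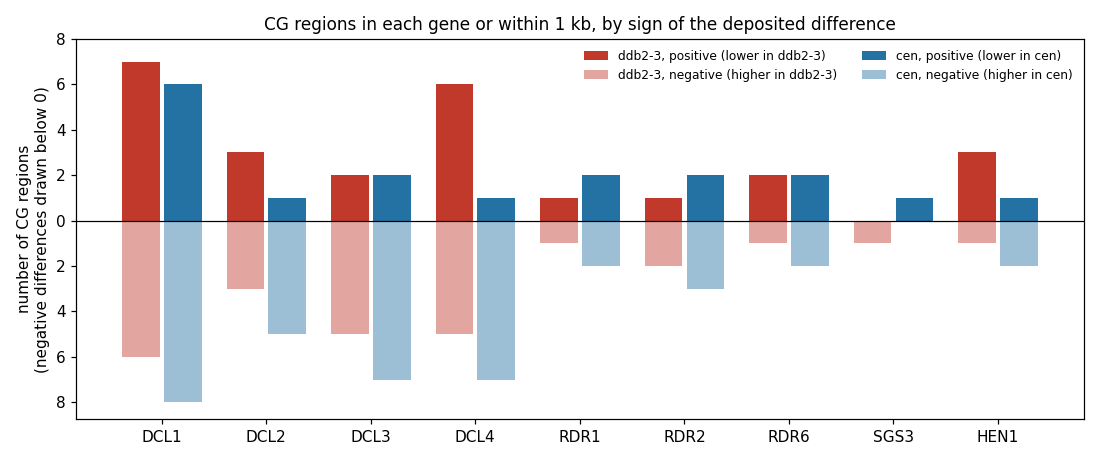
Number of CG regions in each gene or within 1 kb (vertical axis), with positive deposited differences above 0 and negative ones below, ddb2-3 at the left and cen at the right of each pair. DCL1 has the tallest bars, with 7 positive and 6 negative regions for ddb2-3 and 6 positive and 8 negative for cen, and SGS3 has a single region in each.

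The 4 Dicers held most of the regions. They carried 37 CG regions in the ddb2-3 comparison, or 0.881 per kb of gene and flank, and 37 in the cen comparison, whereas the other 5 genes carried 13 for ddb2-3 (0.411 per kb) and 17 for cen (0.538 per kb). For ddb2-3 the Dicers had 18 positive and 19 negative regions. For cen they had 10 positive and 27 negative, so that 27.0% of them were positive, and the other 5 genes had 8 positive and 9 negative. The Dicer genes are also the longest of the 9, and in general longer genes had more CG regions per kb. The values per kb include 1 kb of flank on each side, which is a larger share of the span at shorter genes. Its part in this rise was not tested. The 260 protein-coding genes between DCL3 (7.47 kb) and DCL4 in length had 0.496 CG regions per kb for ddb2-3 and 0.521 for cen (all regions over all lengths), and the 4360 between SGS3 and HEN1 (5.19 kb) had 0.365 for ddb2-3 and 0.394 for cen. Both ranges were chosen after the counts were seen.

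DCL1 (AT1G01040), on chromosome 1, carried the most CG regions of the 9 genes, and very few genes of its length carried as many. The authors' deposited tables listed 13 for ddb2-3 and 14 for cen, all within the gene except 1 for ddb2-3 and 2 for cen that lie beyond its higher-coordinate end in the next gene, PPa1. Of the 5688 genes between SGS3 and DCL4 in length, 0.0352% (2 genes, DCL1 included) had at least 13 CG regions for ddb2-3, and 0.0176% (DCL1 alone) had at least 14 for cen. Among the 233 genes within 10% of its length, 0.858% reached 13 for ddb2-3 and 0.429% reached 14 for cen, and the median was 5 CG regions in either comparison. This comparison of DCL1 was made after its count was seen.

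Regions of both signs were interspersed along DCL1. Its largest difference for ddb2-3 in the authors' deposited table was 0.539 at 24701 to 24800 (TAIR10, as are all positions here), 20.1% along the gene from its lower-coordinate end, where methylation was lower in ddb2-3. Methylation was also lower in ddb2-3 at 25301 to 25400 (0.219, at 27.5%), 26101 to 26200 (0.353, at 37.4%), 27101 to 27200 (0.387, at 49.7%) and 28001 to 28100 (0.199, at 60.8%) in the authors' deposited table. Towards the other end the authors' deposited table gave lower methylation in ddb2-3 at 30101 to 30200 (0.212, at 86.7%) and 30601 to 30700 (0.202, at 92.9%). Between these lay windows of higher methylation. They were 24201 to 24400 (-0.264, at 14.6%), 24801 to 24900 (-0.266, at 21.3%), 27601 to 27700 (-0.333, at 55.9%), 29501 to 29800 (-0.253, at 80.5%) and 30401 to 30500 (-0.153, at 90.4%) in the authors' deposited ddb2-3 table. The window with the widest lower value thus touches one of higher methylation, 0.539 beside -0.266 in the authors' deposited table. In PPa1, the authors' deposited table listed 31901 to 32000 as higher in ddb2-3 (-0.369).

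The cen comparison showed the same mixture at DCL1. Higher methylation in cen was listed in the authors' deposited table at 24201 to 24400 (-0.252, at 14.6%), 25601 to 25700 (-0.129, at 31.2%), 27601 to 27700 (-0.417, at 55.9%) and 28801 to 28900 (-0.375, at 70.7%). Further along, the authors' deposited table gave 29301 to 30000 (-0.231, at 80.5%) and 30401 to 30700 (-0.336, at 91.6%) as higher in cen, and in PPa1 31501 to 31600 (-0.460) and 31901 to 32000 (-0.282). Methylation was lower in cen at 24601 to 24800 (0.394, at 19.5%), 25901 to 26000 (0.192, at 34.9%) and 26701 to 26800 (0.355, at 44.8%) in the authors' deposited table. The gene table gives no strand, so the start and the end of transcription are not told apart by these positions. The remaining regions lower in cen in the authors' deposited table were 29401 to 29700 (0.353, at 79.3%), 30101 to 30200 (0.365, at 86.7%) and 30701 to 30900 (0.345, at 94.7%). Side by side, the authors' deposited tables gave -0.264 for ddb2-3 and -0.252 for cen at 24201 to 24400, and 0.212 for ddb2-3 and 0.365 for cen at 30101 to 30200. With the Col library taken as shared, Col cancels between these values. The lines then differed from each other by little at the first place (0.0117, ddb2-3 minus cen) and by more at the second (0.153). MIR838 (AT1G01046), a microRNA gene that lies within DCL1, was overlapped by 0 regions of any table.

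One pair of cen regions at DCL1 overlaps with opposite signs, which shows how the deposited regions are built. The region 29301 to 30000 (-0.231) spans the region 29401 to 29700 (0.353) in the authors' deposited cen table. Across the whole CG tables, neighbours of the same sign were never closer than 200 bp, and the 2283 pairs for ddb2-3 and 2535 for cen that stood 0 to 100 bp apart all had opposite signs. A further 104 pairs for ddb2-3 and 128 for cen overlapped, all with opposite signs. Windows of the same sign less than 200 bp apart therefore appear to be joined in the tables, across any window of the other sign between them. At the 9 genes 6 pairs for ddb2-3 and 4 for cen stood 0 to 100 bp apart, and all were opposite in sign.

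**Figure D2:**
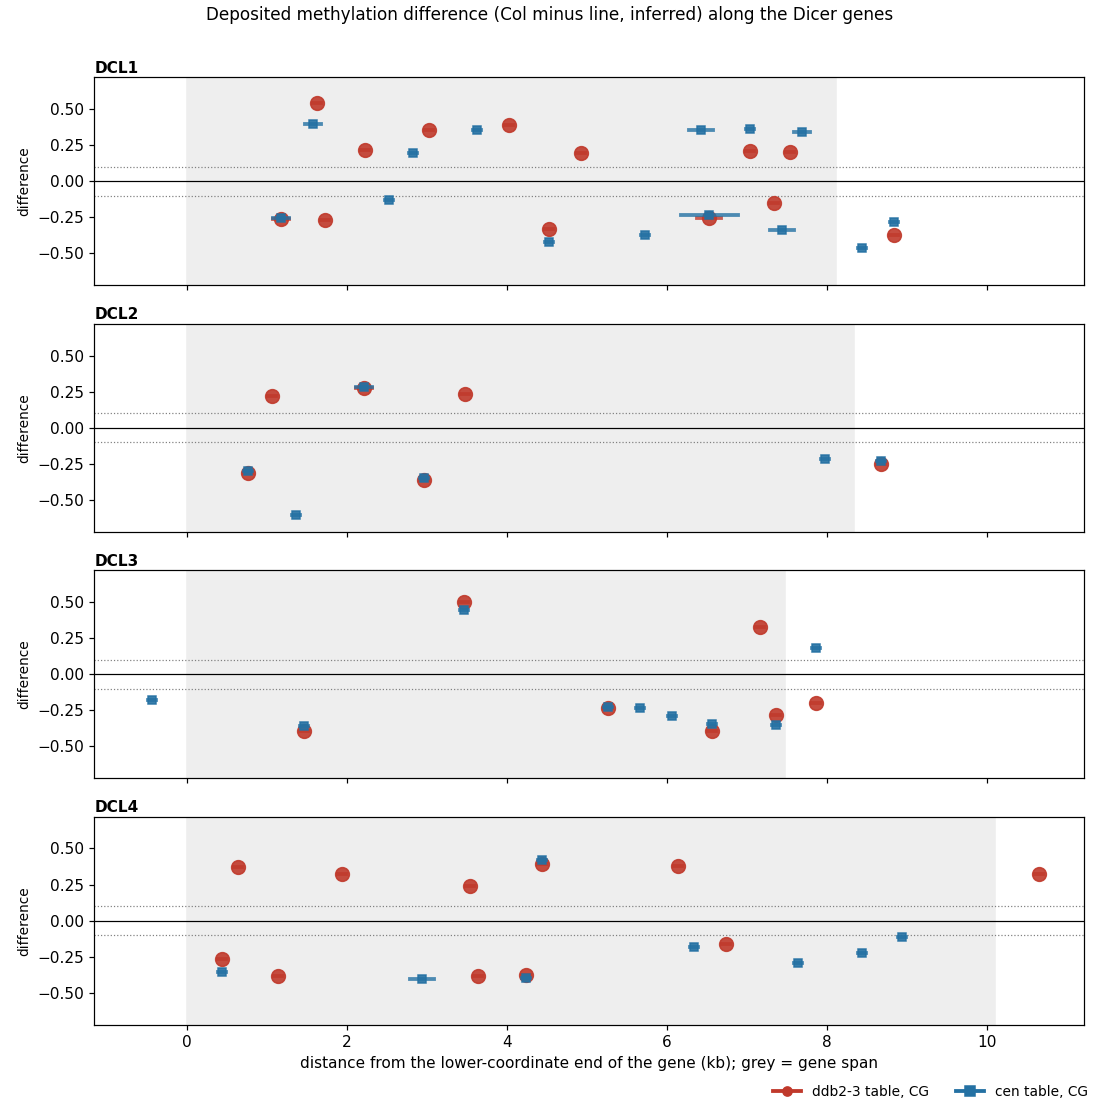
Deposited difference in methylation level (vertical axis, Col minus line as inferred) against distance from the lower-coordinate end of each Dicer gene in kb, with bars as wide as the regions, circles for ddb2-3, squares for cen, grey for the gene and dotted lines at the listing limit of 0.1. DCL1 shows positive and negative regions interspersed along its length, whereas DCL2 has none between 41.6% and 95.6% of the gene and DCL3 in cen is mostly negative.

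DCL2 (AT3G03300), on chromosome 3, had 6 CG regions for ddb2-3 and 6 for cen, numbers reached by 40% for ddb2-3 and 47% for cen of the 200 genes within 10% of its length. Methylation in ddb2-3 was lower at 768901 to 769000 (0.221, at 12.8%), 770001 to 770200 (0.273, at 26.6%) and 771301 to 771400 (0.234, at 41.6%) in the authors' deposited table. It was higher in ddb2-3 at 768601 to 768700 (-0.314, at 9.3%) and 770801 to 770900 (-0.365, at 35.6%) in the same authors' deposited table. All 5 ddb2-3 regions in the gene thus lay before its midpoint. For cen, the authors' deposited table gave 768601 to 768700 (-0.299, at 9.3%), 769201 to 769300 (-0.601, at 16.4%) and 770801 to 770900 (-0.351, at 35.6%) as higher. The value of -0.601 was the widest of the 9 genes in either table, and the ddb2-3 table lists nothing at that window. Lower methylation in cen was listed in the authors' deposited table at 770001 to 770200 (0.286, at 26.6%). At the higher-coordinate end, shared with or in the neighbour AT3G03305, cen was higher at 775801 to 775900 (-0.218, at 95.6%), and 776501 to 776600 was higher in both lines, by -0.248 for ddb2-3 and -0.234 for cen, in the authors' deposited tables.

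DCL3 (AT3G43920), on chromosome 3, had more regions of higher than of lower methylation in both lines. It had 7 CG regions for ddb2-3, 2 positive and 5 negative, 1 of the latter in the neighbour AT3G43930. For cen it had 9, 2 positive and 7 negative. Of all CG regions, 52.4% were positive for ddb2-3 and 42.9% for cen, and a departure of DCL3 from these shares was not tested. Among the 311 genes within 10% of its length 20.9% had at least 7 for ddb2-3 and 7.07% at least 9 for cen. The authors' deposited ddb2-3 table gave higher methylation at 15754801 to 15754900 (-0.395, at 19.6%), 15758601 to 15758700 (-0.235, at 70.4%), 15759901 to 15760000 (-0.395, at 87.8%) and 15760701 to 15760800 (-0.285, at 98.5%). Lower methylation in ddb2-3 stood at 15756801 to 15756900 (0.504, at 46.4%) and 15760501 to 15760600 (0.330, at 95.9%) in the authors' deposited table. The window at 46.4% was lower in cen too, by 0.442, which is the widest positive value of cen at the 9 genes in the authors' deposited table. In the later part of the gene the authors' deposited cen table held 5 higher windows and no lower one, at 15758601 to 15758700 (-0.230, at 70.4%), 15759001 to 15759100 (-0.232, at 75.8%), 15759401 to 15759500 (-0.290, at 81.1%), 15759901 to 15760000 (-0.344, at 87.8%) and 15760701 to 15760800 (-0.349, at 98.5%). The authors' deposited cen table further gave 15754801 to 15754900 as higher (-0.355, at 19.6%), and so 15752901 to 15753000 (-0.182), which lies beyond the lower-coordinate end.

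Beyond the higher-coordinate end of DCL3, in the neighbour AT3G43930, the 2 lines went opposite ways in 1 window. At 15761201 to 15761300 the authors' deposited tables gave -0.201 for ddb2-3, higher than Col, and 0.179 for cen, lower than Col. With the Col library taken as shared, this puts ddb2-3 above cen by 0.380. In the other DCL3 windows that both tables list, ddb2-3 and cen differed, on the same assumption, by between -0.0637 and 0.0511 (ddb2-3 minus cen).

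DCL4 (AT5G20320), on chromosome 5, had 11 CG regions for ddb2-3, which 2.15% of the 93 genes within 10% of its length reached (2 genes, DCL4 included), and 8 for cen, which 26.9% reached. In ddb2-3 the signs were mixed, 6 positive and 5 negative, and in cen 1 was positive and 7 were negative. Lower methylation in ddb2-3 was listed in the authors' deposited table at 6859801 to 6859900 (0.371, at 6.3%), 6861101 to 6861200 (0.323, at 19.2%) and 6862701 to 6862800 (0.242, at 35.1%). The same authors' deposited table gave 6863601 to 6863700 (0.390, at 44.0%), 6865301 to 6865400 (0.378, at 60.8%) and, beyond the higher-coordinate end, 6869801 to 6869900 (0.321) as lower in ddb2-3. Higher windows were interspersed with these. The authors' deposited ddb2-3 table placed them at 6859601 to 6859700 (-0.263, at 4.3%), 6860301 to 6860400 (-0.380, at 11.3%), 6862801 to 6862900 (-0.385, at 36%), 6863401 to 6863500 (-0.373, at 42.0%) and 6865901 to 6866000 (-0.160, at 66.7%).

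Of the 8 cen regions of DCL4, 7 were higher than Col. Among all CG regions for cen 42.9% were positive, and 46.8% of those at genes between SGS3 and DCL4 in length. The signs at DCL4 were not tested against these shares. The authors' deposited table listed 6859601 to 6859700 (-0.359, at 4.3%), 6862001 to 6862300 (-0.401, at 29.1%) and 6863401 to 6863500 (-0.394, at 42.0%). Later in the gene the authors' deposited cen table listed 6865501 to 6865600 (-0.181, at 62.8%), 6866801 to 6866900 (-0.293, at 75.7%), 6867601 to 6867700 (-0.222, at 83.6%) and 6868101 to 6868200 (-0.112, at 88.5%). The exception was 6863601 to 6863700, lower in cen by 0.417 and in ddb2-3 by 0.390, only 100 bp after a window that was higher in both, with -0.373 for ddb2-3 and -0.394 for cen in the authors' deposited tables.

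RDR1 (AT1G14790), an RNA-dependent RNA polymerase of antiviral defence on chromosome 1, had 2 CG regions for ddb2-3 and 4 for cen. The median of genes within 10% of its length was 2 in either comparison. For ddb2-3 the authors' deposited table listed 5096101 to 5096200 as higher (-0.255, at 50.8%) and 5096901 to 5097000 as lower (0.325, at 69.4%). The second of these was lower in cen by nearly the same value, 0.326. The authors' deposited cen table also gave 5095601 to 5095700 as lower (0.411, at 39.2%), 5096401 to 5096500 as higher (-0.239, at 57.8%) and, beyond the higher-coordinate end, 5098901 to 5099000 as higher (-0.191). At least 2 CG regions were found at 65.9% of the 1627 genes within 10% of its length for ddb2-3, and at least 4 at 27.9% for cen.

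RDR2 (AT4G11130), on chromosome 4, whose product copies the transcripts of RNA polymerase IV into double-stranded RNA, was the only one of the 9 genes with a region outside CG. In the authors' deposited CHG table for ddb2-3, 6785001 to 6785100, beyond the higher-coordinate end of the gene and in no other annotated gene, was lower in ddb2-3 (0.161). The cen tables list no CHG region within 1 kb of any of the 9 genes. A CHG region stood at 5.04% of all protein-coding genes for ddb2-3 and 6.19% for cen, and a CHH region at 7.66% for ddb2-3 and 7.33% for cen, and the shares among genes of this length were 4.59% (CHG) and 8.05% (CHH) for ddb2-3 and 5.63% (CHG) and 8.02% (CHH) for cen. The 9 genes, with 1 CHG region for ddb2-3 and 0 other regions outside CG, are near what genes in general show. At least 3 CG regions were found at 43% of the 1727 genes within 10% of its length for ddb2-3, and at least 5 at 13.3% for cen. In CG, the authors' deposited ddb2-3 table gave 6782001 to 6782100 as higher (-0.300, at 38.3%) and 6782601 to 6782700 as lower (0.263, at 52.6%). In cen the first of these was higher too (-0.374), with 6783301 to 6783400 higher (-0.215, at 69.4%) and 6784001 to 6784300 lower (0.229, at 88.5%) in the authors' deposited table. In the neighbour AT4G11120, 6779801 to 6779900 was higher in both lines (-0.172 for ddb2-3 and -0.243 for cen) and 6779501 to 6779600 was lower in cen (0.332) in the authors' deposited tables.

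RDR6 (AT3G49500), on chromosome 3, and its partner SGS3, an RNA-binding protein, act together in making double-stranded RNA for trans-acting small RNAs. At 18350801 to 18350900, 39.9% along RDR6, the authors' deposited tables give one and the same value, 0.294 for ddb2-3 and 0.294 for cen, which makes it 1 of the 818 CG places with equal values described above. The next windows were alike as well, with 18351301 to 18351500 lower in ddb2-3 (0.294, at 51.6%) and 18351301 to 18351400 lower in cen (0.289, at 50.6%) in the authors' deposited tables. At 18352101 to 18352200, 67.6% along, both lines were higher, with -0.319 for ddb2-3 and -0.315 for cen in the authors' deposited tables. Starting 100 bp after its second lower window, the cen table had 18351501 to 18351700 as higher (-0.471, at 55.9%), where the authors' deposited ddb2-3 table lists nothing. RDR6 had 3 regions for ddb2-3, a number reached by 47.5% of the 1288 genes within 10% of its length, and 4 for cen, reached by 34%.

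SGS3 (AT5G23570), on chromosome 5, the shortest of the 9 genes, had 1 CG region in each comparison and they differed in place and sign. The window 7944701 to 7944800 was higher in ddb2-3 (-0.356, at 56.9%) and 7945001 to 7945100 was lower in cen (0.350, at 66.1%) in the authors' deposited tables. At least 1 CG region was found at 76.5% of the 2990 genes within 10% of its length for ddb2-3 and at 77.9% for cen.

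HEN1 (AT4G20910), on chromosome 4, had 3 lower CG regions and 1 higher one in ddb2-3, and 1 lower and 2 higher in cen. The lower region of cen was the longest of its regions here, with 300 bp. It also had the largest absolute difference of them, and it alone reached 0.2, so cen had no clear direction at HEN1. The authors' deposited ddb2-3 table gave 11188601 to 11188800 (0.561, at 53.3%), 11189301 to 11189400 (0.335, at 65.8%) and 11189601 to 11189700 (0.302, at 71.6%) as lower and 11186401 to 11186500 (-0.149, at 9.9%) as higher. In cen, 11188701 to 11188800 (-0.197, at 54.3%) and 11189701 to 11189800 (-0.171, at 73.5%) were higher and 11186601 to 11186900 (0.225, at 15.7%) was lower in the authors' deposited table. The first cen window lies within the ddb2-3 region of the largest difference and has the opposite sign. The ddb2-3 value covers 200 bp and the cen value 100 bp, and no ddb2-3 value is listed for those 100 bp alone. HEN1 had 4 CG regions for ddb2-3 and 3 for cen, numbers reached by 32.7% for ddb2-3 and 58.8% for cen of the 980 genes within 10% of its length.

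**Figure D3:**
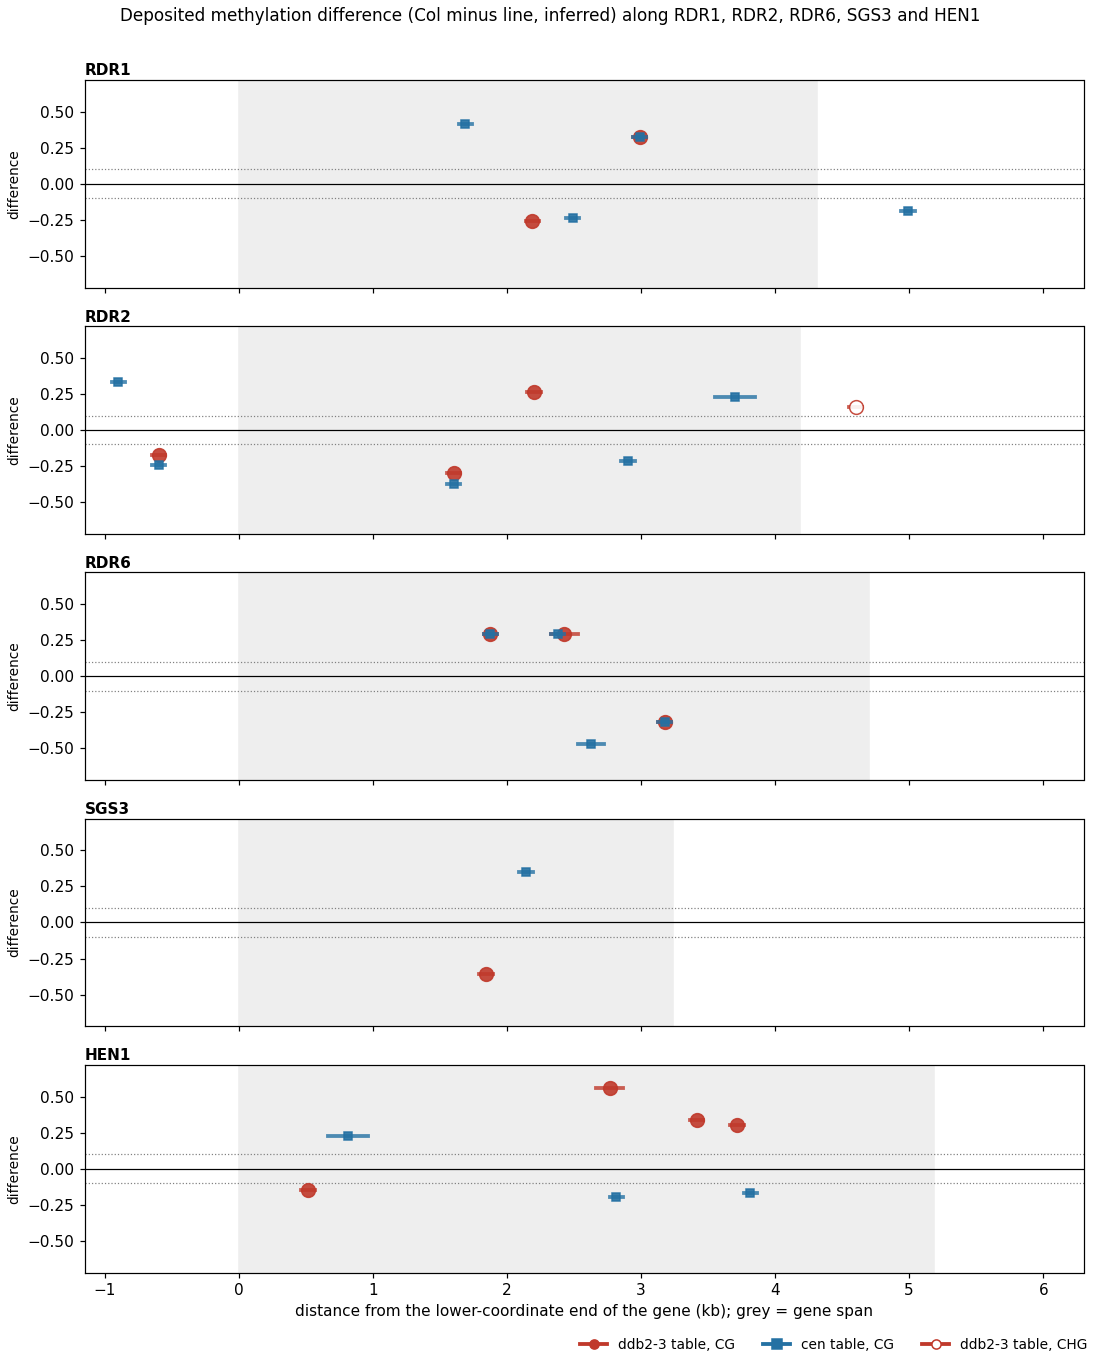
Deposited difference in methylation level (vertical axis, Col minus line as inferred) against distance from the lower-coordinate end of RDR1, RDR2, RDR6, SGS3 and HEN1 in kb, drawn as for the Dicers, with an open circle for the CHG region of ddb2-3 beside RDR2. The symbols of both lines lie on each other in RDR6 at 0.294. In HEN1 they lie on opposite sides of 0, at 0.561 for ddb2-3 (over 200 bp) and -0.197 for cen (over 100 bp of these).

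**Figure D4:**
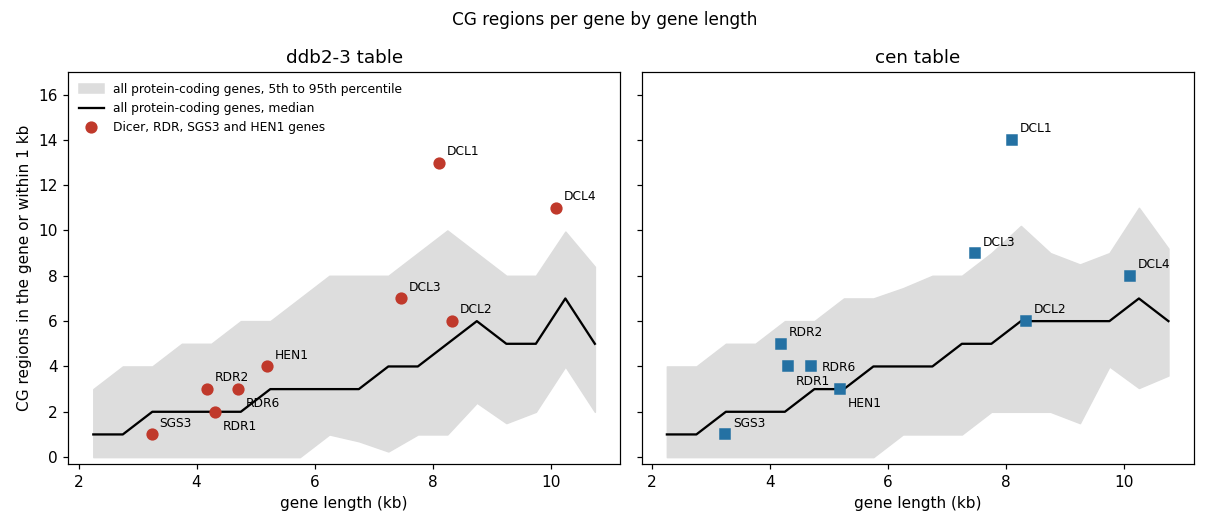
CG regions in each gene or within 1 kb (vertical axis) against gene length in kb, for the 9 genes (circles for ddb2-3, squares for cen) over the median (line) and the range from the 5th to the 95th percentile (grey) of all protein-coding genes in bins of 0.5 kb. DCL1 stands above the grey range with 13 regions for ddb2-3 and 14 for cen. DCL4 stands above it with 11 for ddb2-3 and DCL3 with 9 for cen, and SGS3 lies below the line with 1 region in each. Among genes within 10% of the length of DCL3, a wider range than a bin, 7.07% had at least 9 for cen.

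Other genes of small RNA processing, 21 in number, also had CG regions in both directions. They comprise partners of Dicers in microRNA processing (HYL1, SE, HST, DDL, CBP20 and ABH1, also called CBP80), the double-stranded RNA-binding proteins DRB2 to DRB5, enzymes that act on the ends of small RNAs (HESO1, SDN1, SDN2 and SDN3), SDE3, SDE5, RTL2, WRNEXO and the loci AT2G19910, AT2G19920 and AT2G19930. For ddb2-3, 18 of the 21 had a CG region, 12 a positive and 17 a negative one, and for cen 19 had one, 15 a positive and 16 a negative one. Over all protein-coding genes, whatever their length, the shares were 57.7% with a region, 43% with a positive and 39% with a negative one for ddb2-3, and 60.1%, 40.1% and 46% for cen. Over these genes 17 CG regions were positive and 32 negative for ddb2-3, and 19 were positive and 32 negative for cen. Of all CG regions in the whole tables, 52.4% were positive for ddb2-3 and 42.9% for cen. The 21 genes had a median absolute difference of 0.267 for ddb2-3 and 0.289 for cen. DRB4, the partner of DCL4, and DRB5 had no region in any table. HYL1, the partner of DCL1, had a region only in the cen table.

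The widest differences among these 21 genes were of the same order as those of the Dicers or above. In the authors' deposited ddb2-3 table, AT2G19930 was lower at chromosome 2, 8610801 to 8610900 (0.778), and ABH1, a cap-binding protein, at chromosome 2, 5641901 to 5642000 (0.445). SDN2, a nuclease that degrades small RNAs, was higher in ddb2-3 at chromosome 5, 1637601 to 1637900 (-0.560), and so was the place 5195701 to 5195900 of chromosome 3 beside SDE5, in the neighbour AT3G15380 (-0.544), in the authors' deposited table. For cen the authors' deposited table gave lower methylation beside RTL2, in the neighbour CPK9, at chromosome 3, 7118601 to 7118700 (0.477), and in SE, a zinc-finger protein of microRNA processing, at chromosome 2, 11575601 to 11575700 (0.429). Higher methylation in cen stood beside SDE5 at 5195701 to 5195800 (-0.774) and in SDN3 at chromosome 5, 26826601 to 26826700 (-0.563) in the authors' deposited table. Outside CG, the authors' deposited tables gave higher CHH methylation in ddb2-3 within 1 kb of CBP20 at chromosome 5, 17804401 to 17804500 (-0.201), and of HESO1, which adds uridines to unprotected small RNAs, at chromosome 2, 16574801 to 16575000 (-0.119). Higher CHG methylation in cen was listed within 1 kb of DRB2 at chromosome 2, 12136501 to 12136600 (-0.229), in the authors' deposited table.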

How the data were processed

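Bisulfite libraries of ddb2-3 and Col seedlings, 1 of each, were made by the authors. The submitters' processing notes name Bismark with Bowtie2 2.0, Trim Galore with cutadapt, FastQC and the TAIR10 build. For the calling, testing and filtering of regions, no method is given in the sources used here. The deposited score of each region is a difference of methylation levels, between -1 and 1, in 6 tables (3 contexts, 2 comparisons). The ddb2-3 tables carry the name of the DsLox insertion, and the cen tables carry that line's name.

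Regions were matched to genes by position with the RefSeq gene table of TAIR10.1, which was used for names, for neighbours and for relative position, and none of its coordinates are given. It has no strand, exons or sequence, so none are stated. All 30 genes of both lists were found. Values were listed and counted with no test, beside counts over all protein-coding genes, over those of the members' length range, and within 10% of each member's length. The 9 members and the list of 21 partners were chosen with earlier results of these data known. All members are named, and of the partners those with a CHG or CHH region, with none, or with the 2 widest CG differences per table and sign. HYL1 was named after its values were seen. Ties were values equal within 1.5e-06. Counting was tested on simulated placements. Python 3.11.15, pandas 2.3.3, NumPy 2.4.6 and matplotlib 3.10.9 were used. Alternatives were no flank or 2 kb, a difference of at least 0.2, midpoints, and merging.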

Additional observations from a re-analysis of the deposited data

Results flagged for a closer look

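At 4 places of the 9 genes ddb2-3 and cen were listed with opposite signs against Col. Of the windows listed identically in both comparisons at these genes, all but the 1 beside DCL3 had the same sign. How often opposite signs occur over all genes was not counted, so these places are not shown to be particular to the 9 genes. The labels give 1 library of ddb2-3 and do not describe cen, and the difference was not tested. All values here are from the authors' deposited tables. In DCL1, ddb2-3 had -0.253 at 29501 to 29800 and cen 0.353 at 29401 to 29700, although cen also had -0.231 over the longer region 29301 to 30000. Further along DCL1, ddb2-3 had 0.202 at 30601 to 30700 and cen -0.336 at 30401 to 30700, and ddb2-3 had -0.153 at 30401 to 30500 within that same cen region. Beside DCL3, ddb2-3 had -0.201 and cen 0.179 in the identical window 15761201 to 15761300. In HEN1, ddb2-3 had 0.561 at 11188601 to 11188800 and cen -0.197 at 11188701 to 11188800. Only the window beside DCL3 has the same extent in both, so the other places do not compare levels over the same bases.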

How the results depend on the processing

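The counts of CG regions at the 9 genes and of genes with one stayed within 1.5 times without the flank, with 2 kb, with midpoints and with a difference of at least 0.2. Merging neighbours of the same sign within 100 bp could change nothing, since none stand that close, and says nothing of stability. With the gene alone, the 1 CHG region of ddb2-3 (beside RDR2) dropped to 0, and so it did with a difference of at least 0.2. With a flank of 2 kb, the CHH regions became 1 in place of 0 for ddb2-3, and 1 in place of 0 for cen. The number of all protein-coding genes with a CHG region, 1383 for ddb2-3 and 1700 for cen, became 440 for ddb2-3 and 610 for cen with the gene alone, 2117 for ddb2-3 and 2684 for cen with 2 kb, and 530 for ddb2-3 and 635 for cen with a difference of at least 0.2. With a CHH region, 2103 for ddb2-3 and 2013 for cen became 310 for ddb2-3 and 320 for cen with the gene alone, 3292 for ddb2-3 and 3241 for cen with 2 kb, and 160 for ddb2-3 and 142 for cen with at least 0.2. Of the counts per gene, 6 of 72 moved by over 1.5 times. With 2 kb, RDR6 had 5 for ddb2-3, SGS3 2 for ddb2-3 and 2 for cen, and HEN1 5 for cen. With the gene alone RDR2 had 3 for cen, and with at least 0.2 HEN1 had 1 for cen, which was its positive region. No paired analysis was possible, because the labels give 1 library of Col and 1 of ddb2-3 and do not describe cen. No test was run. Depth per region is unknown and limits every value.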

Other observations

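Just within the limit of 1 kb lay the cen values -0.282 beside DCL1 (31901 to 32000) and 0.332 beside RDR2 (6779501 to 6779600), and just outside it 0.334 for ddb2-3 beside RDR2 (6779301 to 6779400) and 0.172 for cen beside RDR6 (18354801 to 18355000), in the authors' deposited tables. Between 1 and 2 kb, the regions outside CG both lay beyond the higher-coordinate end of HEN1, where CHH methylation was lower in ddb2-3 at 11192501 to 11192600 (0.233) and higher in cen at 11193001 to 11193100 (-0.121) in the authors' deposited tables.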
